A study of Mus musculus with 21 samples.

Results

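The genes described here are 37 members of the machinery that moves new proteins into the endoplasmic reticulum (ER) and folds, trims and checks them there. They were picked by name from the rows of a raw count table of 23337 genes, across 9 groups of sorted mouse B cells, and all 37 had a row. The groups combine 3 tissues (spleen, mesenteric lymph nodes, written mLN, and Peyer's patches, the lymphoid follicles of the gut wall, written PP) with 3 kinds of B cell named in the labels as HEL neg or HEL pos cells and as BCL2 HEL pos cells. The labels give every mouse as C57BL/6, aged 8 to 12 weeks and housed with its own group. They do not spell out HEL or BCL2, the sorting gate or any allele, so the groups are named here only as labelled. Each tissue has 1 pooled HEL neg library, 3 HEL pos libraries (a pool and libraries numbered 392 and 399) and 3 BCL2 HEL pos libraries (922, 926 and 950), 21 in all. The labels do not say that a number marks a mouse, or how many animals went into a pool, so p-values measure the spread between these libraries, which may in part be technical. HEL neg cells have no replicate within a tissue.

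As background, a protein bound for secretion or for a membrane enters the ER through the Sec61 channel, assisted by the TRAP complex, and loses its signal peptide to the signal peptidase. Inside, the Hsp70 chaperone BiP (Hspa5), the Hsp90 chaperone Grp94 (Hsp90b1) and the lectin chaperones calreticulin and calnexin hold it while protein disulfide isomerases and the Ero1 oxidases form its disulfide bonds, and failed products go back to the cytosol for ER-associated degradation. When unfolded proteins build up, the sensors Ire1 (Ern1) and Atf6 switch on many of these genes, a response that B cells also use, through Xbp1, when they become antibody-secreting plasma cells.

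Much of this response is known to act through a promoter sequence named the ER stress element, which is CCAAT and CCACG with 9 bases of any kind between them, and through a shorter form, ATTGG and CCACG with 1 base between them. Of the 37 genes, 29 matched an entry in RefSeq promoters of GRCm38.p6, which span 250 bases before to 50 after a start. Searched on both strands without a mismatch, 9 of those 29 held the long element, against 0.137% of the 27025 gene symbols in the table, and 2 held the short one (Dnajb11 and Herpud1), against 0.0444%. With 1 mismatch allowed the long element was found in 15 members, against 1.72% of symbols. The bZIP core TGACGTGG was found in none of the 29, against 0.714% of symbols. The members were picked by name and include known genes of this response, so these shares describe that choice and are not a test. The windows below are shown because the genes hold 1 of these 2 elements and yet moved in different ways between tissues, as given further on. Herpud1 holds the exact short element and the others the exact long one. In HEL pos cells the first 5 genes were higher in mLN than in spleen, Ero1lb was lower, and Syvn1 and Herpud1 were not called. Each is read 5′ to 3′ on its gene's strand, with the conserved ends of the element in capitals.
Pdia6, chr12:17266471-17266529, plus strand: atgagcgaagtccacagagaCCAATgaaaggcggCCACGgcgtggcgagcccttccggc
Canx, chr11:50325780-50325838, minus strand: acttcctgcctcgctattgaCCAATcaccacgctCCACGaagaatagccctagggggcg
Hsp90b1, chr10:86705618-86705676, minus strand: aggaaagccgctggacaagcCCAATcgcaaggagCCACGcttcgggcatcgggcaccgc
Calr, chr8:84847055-84847113, minus strand: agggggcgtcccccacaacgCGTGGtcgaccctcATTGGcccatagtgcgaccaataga
Creld2, chr15:88819500-88819558, plus strand: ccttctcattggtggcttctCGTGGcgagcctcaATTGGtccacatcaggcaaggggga
Ero1lb, chr13:12565662-12565720, plus strand: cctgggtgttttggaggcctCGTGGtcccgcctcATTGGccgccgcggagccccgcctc
Syvn1, chr19:6046512-6046570, plus strand: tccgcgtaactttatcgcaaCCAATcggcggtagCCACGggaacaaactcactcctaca
Herpud1, chr8:94386357-94386407, plus strand: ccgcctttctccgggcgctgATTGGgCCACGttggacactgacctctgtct
In Pdia6, Canx, Hsp90b1 and Syvn1 the element runs in the gene's own direction, and in Calr, Creld2 and Ero1lb it lies on the opposite strand and appears as its reverse complement. Hsp90b1 holds a second copy, in that reversed order, closer to its start. In Hspa5 the element, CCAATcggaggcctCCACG at chr2:34772025-34772043 on the plus strand, lies before the RefSeq start but inside the longer gene model of GENCODE M21. Dnajc3 is the ninth gene with the long element. A match describes letters in a window and is not evidence that a factor binds there.

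Library totals ran from 5475131 to 11340876 counts, and the 37 genes together took 0.589 to 1.19% of them. The lowest count of any member in any library was 3, for Ern1, and the median member had 709 to 2080 counts depending on the library. Counts of B cell markers such as Cd79a and Ms4a1 were present in every group, with a summed level of 25034 to 42669 CPM (counts scaled to library depth) over the 8 genes of that list. Transcripts of Y-linked genes were near 0 in all HEL pos libraries numbered 392 and 399 (0 to 0.869 CPM). They were at 92.3 to 168 CPM in the other 15 libraries. The HEL pos groups therefore also differ in this respect from both the BCL2 HEL pos and the HEL neg groups.

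Levels are in CPM on library totals scaled with the trimmed mean of M values, and per kilobase (kb) of exon where genes are compared with each other. Averaged over the 21 libraries, the disulfide isomerase Pdia3 stood highest at 240 CPM per kb, followed by Hspa5 at 200, Pdia4 at 193 and Calr at 182. At the other end, the sensor Ern1 stood at 0.240 CPM per kb, below Ero1l at 6.53 and Atf6 at 7.88. Among the 18 replicated libraries, 26 of the 37 genes had their highest group mean in mLN HEL pos cells, and 20 had their lowest in spleen BCL2 HEL pos cells. The library 399 of mLN HEL pos cells held the highest value of the 21 for 12 members, and the library 922 of spleen BCL2 HEL pos cells held the lowest for 12. These counts are descriptions, and the share of all genes with their extremes in these groups and libraries is not given here. The BCL2 HEL pos library 922 had the lowest summed level of the 37 genes among the 3 BCL2 libraries in each tissue, at 5964 CPM in spleen, 7204 in mLN and 6913 in PP.

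**Figure D1:**
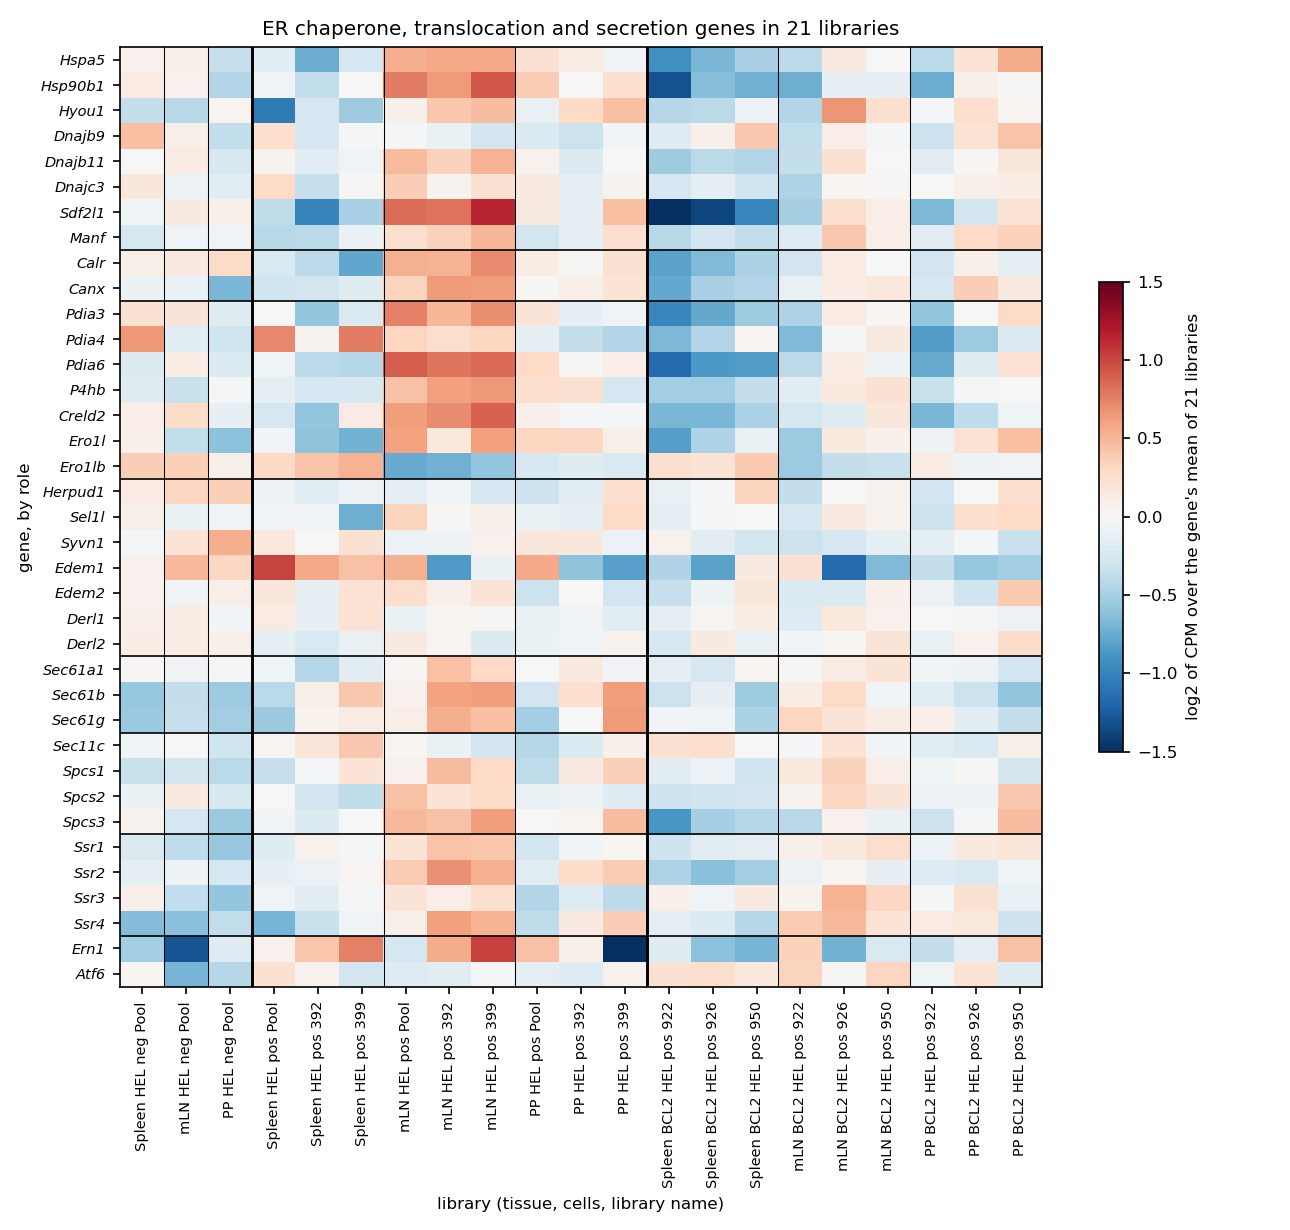
Each cell is the log2 ratio of a gene's CPM in 1 library (columns, grouped by cells and tissue) to that gene's mean over 21 libraries (rows, grouped by role). Most chaperone, isomerase and TRAP rows are red in the 3 mLN HEL pos libraries and blue in the spleen BCL2 HEL pos libraries, Ero1lb runs the other way in mLN, and the degradation genes show no common block.

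The first question is how B cells labelled HEL pos differ between tissues. In mLN against spleen, 19 of the 37 genes were higher and 1, Ero1lb, was lower at an adjusted p under 0.05 (edgeR quasi-likelihood test over 11419 genes, 3 libraries a group, an event referred to below as a call). Of all genes tested, 24.5% were called in this comparison in either direction, 12.9% higher and 11.5% lower. The median log2 difference was 0.50 over the members and -0.01 over all genes tested. Summed over the 37 genes, the level was 7965 ± 689 CPM in spleen and 11626 ± 421 CPM in mLN (SD, n = 3). In bulk RNA, a change in the share of cells that express a gene cannot be told apart from a change in RNA per cell.

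In the ER Hsp70 and Hsp90 group, which includes their co-chaperones, 6 of 8 members were called higher. Hspa5, the BiP chaperone that also holds the stress sensors inactive, stood at 753, 505 and 714 CPM in the spleen pool, 392 and 399 and at 1237, 1261 and 1267 CPM in the corresponding mLN libraries. Every mLN value lay above every spleen value, and the log2 difference was 0.96 ± 0.20 (SE, adjusted p = 0.00106). Hsp90b1, which folds Toll-like receptors and integrins, was at 598, 483 and 628 CPM in spleen and 1067, 975 and 1189 CPM in mLN, again without overlap, a log2 difference of 0.94 ± 0.21. Sdf2l1, a partner of BiP that keeps unfolded clients soluble, had the largest difference of the 37 genes. It was at 69.0, 45.4 and 64.4 CPM in spleen and 160, 158 and 199 CPM in mLN, which is 1.55 ± 0.23 on the log2 scale (adjusted p = 3.74e-05) or 2.94-fold. Manf, a secreted stress-induced factor that binds BiP, rose from 97.1, 98.3 and 121 CPM to 153, 165 and 183 CPM. Hyou1, the nucleotide exchange factor Grp170, and Dnajb11, a J-domain co-chaperone, were also called, at 0.93 and 0.53. The J-domain proteins Dnajb9 and Dnajc3 were not called, at -0.11 and 0.24.

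Both lectin chaperones, which bind glycoproteins whose trimmed sugar chain still carries a last glucose, were higher. Calr, the soluble one, was at 448, 402 and 307 CPM in spleen and 762, 753 and 862 CPM in mLN, a log2 difference of 1.06 ± 0.15 (adjusted p = 1.93e-05). Canx, the membrane-bound one, was at 423, 427 and 458 CPM against 657, 811 and 806 CPM, with no overlap and a log2 difference of 0.82 ± 0.15.

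The disulfide group was the one that split. Pdia6 was at 336, 268 and 261 CPM in spleen and 655, 613 and 632 CPM in mLN, a log2 difference of 1.16 ± 0.19 (adjusted p = 8.81e-05), and Pdia3 and P4hb, other isomerases of the family, were higher by 0.92 and 0.82. Creld2, an isomerase-like stress gene, was at 76.2, 60.2 and 98.4 CPM against 140, 148 and 168 CPM, and was higher by 0.98 ± 0.17. Pdia4 was not called, with 765, 481 and 787 CPM in spleen enclosing the mLN values of 579, 558 and 578 CPM.

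The Ero1 oxidases, which pass electrons from the isomerases to oxygen, moved in opposite directions. Ero1l was at 33.5, 22.8 and 21.1 CPM in spleen and 52.6, 38.6 and 52.8 CPM in mLN, higher by 0.91 ± 0.22 (adjusted p = 0.00459). Ero1lb, the second oxidase, was at 205, 225 and 239 CPM in spleen and 98.8, 101 and 111 CPM in mLN. This was the smallest p among the 37 genes (log2 difference -1.08 ± 0.11, adjusted p = 4.57e-07). All 3 mLN values of Ero1lb were below all 3 in spleen.

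Of the 11 channel, signal peptidase and TRAP genes, 6 were called higher. Sec61a1, the pore subunit, was called higher by 0.50 ± 0.13, while Sec61g (0.50 ± 0.22) and Sec61b (0.41 ± 0.22), the small tail-anchored subunits, were not. Sec61b was at 110, 155 and 193 CPM in spleen and 153, 222 and 224 CPM in mLN, and these ranges overlap. Of the signal peptidase, Spcs2 and Spcs3 were higher (0.55 and 0.62), and the catalytic subunit Sec11c was not called (-0.30 ± 0.15). The TRAP subunits Ssr1, Ssr2 and Ssr4 were higher and Ssr3 was not called (0.29). Ssr4 had the largest TRAP difference, 0.80 ± 0.19, from 108, 139 and 167 CPM in spleen to 186, 268 and 252 CPM in mLN.

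None of the 7 degradation genes and neither of the stress sensors was called in this comparison. Herpud1, a stress-induced organiser of the degradation complex, was at 238, 226 and 236 CPM in spleen and 229, 243 and 210 CPM in mLN, a log2 difference of -0.01 with a 95% interval from -0.36 to 0.34. Sel1l and Syvn1, the adaptor and ubiquitin ligase of that complex, differed by 0.42 ± 0.19 and -0.14 ± 0.12. Derl1 and Derl2, which help to pull clients through the membrane, differed by -0.07 and 0.18. The mannosidase-like Edem1 had the widest spread, at 181, 133 and 121 CPM in spleen and 129, 49.7 and 83.6 CPM in mLN. Ern1 was too low for a firm reading, at 2.05, 2.62 and 3.29 CPM in spleen and 1.63, 2.88 and 3.99 CPM in mLN, with an interval from -1.09 to 1.33. Atf6 differed by -0.12 ± 0.14.

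Of the 20 calls, 17 held under all 12 alternatives to the fit, those left without each library in turn included, and Sec61a1, Spcs3 and Ssr1 lost theirs under at least 1. B cell markers were lower in mLN, with 6 of 8 called lower and a summed level of 39284 to 40040 CPM in spleen and 25034 to 25805 CPM in mLN. The plasma cell list had 5 of 11 tested members higher and 3 lower, with summed levels of 887 to 1205 CPM in spleen and 1141 to 1165 CPM in mLN. Sdc1 (log2 difference 2.42), Slamf7, Irf4, Derl3 and Xbp1 were the higher ones, and Igj, the joining chain of secreted antibody (-3.85), Fkbp11 and the gene listed as 2010001M09Rik (Mzb1) the lower. Prdm1, which sets the plasma cell programme, was not called (0.22) and Tnfrsf17 was at 0 to 0.770 CPM in the 21 libraries. The granulocyte list was at 49.1 to 193 CPM in spleen HEL pos libraries and 0 to 0.250 CPM in mLN. Of T and NK cell markers 3 of 10 were higher and of macrophage and monocyte markers 3 of 8 lower. The part of these lists in the differences was not tested.

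**Figure D2:**
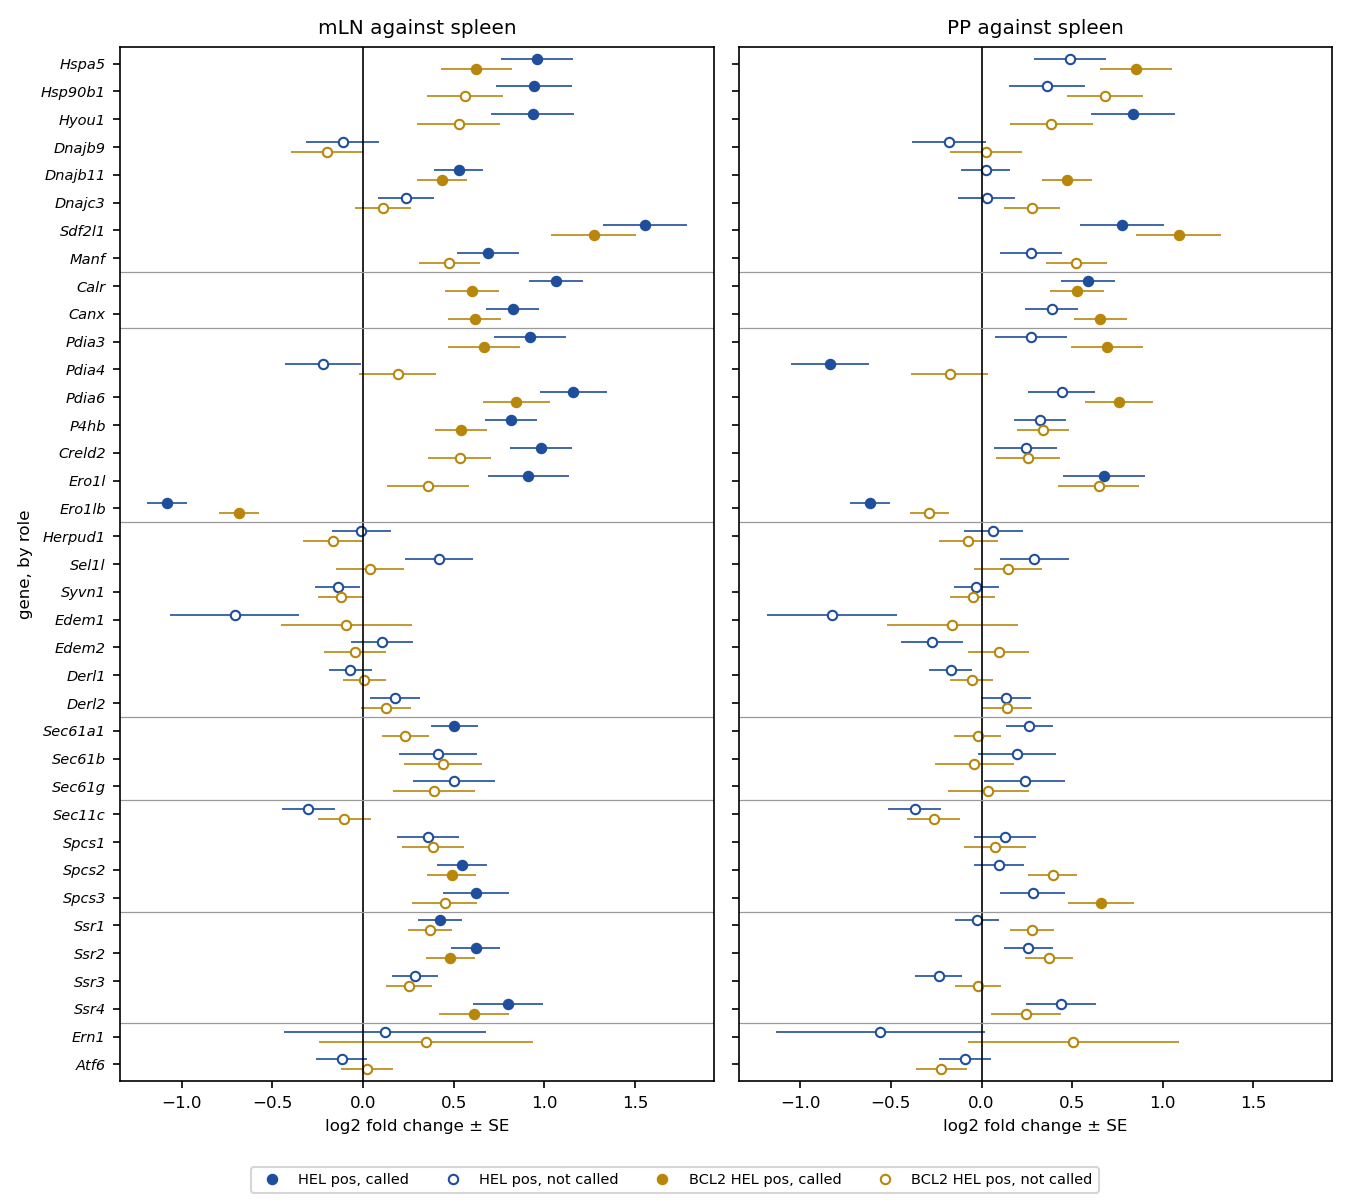
Points are log2 fold changes of mLN (left) and PP (right) against spleen for the 37 genes by role, with SE bars, in HEL pos (blue) and BCL2 HEL pos cells (gold). Filled points were called at an adjusted p under 0.05: 20 and 12 in mLN, 6 and 8 in PP.

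In Peyer's patch HEL pos cells the summed level of the 37 genes was 8768 ± 222 CPM (SD, n = 3), between the means of spleen and mLN. Against spleen, 4 members were higher (Hyou1, Sdf2l1, Ero1l and Calr) and 2 were lower (Pdia4 and Ero1lb), while 15.4% of all genes tested were called, 7.94% higher and 7.43% lower. The member median was 0.20, against 0.02 over all genes. The largest rise was in Hyou1, 0.83 ± 0.23 on the log2 scale, followed by Sdf2l1 at 0.77 ± 0.23. Pdia4, the isomerase of the family with an extra catalytic domain, fell by 0.84 on the log2 scale, from 765, 481 and 787 CPM in spleen to 422, 363 and 341 CPM in PP (SE 0.21, adjusted p = 0.01). Ero1lb was at 141, 148 and 142 CPM, below all spleen values and above all mLN values. It had the smallest p here too (log2 difference -0.62 ± 0.11, adjusted p = 0.000582) and was the one member called under every alternative. Without the spleen library 399 the count of calls was 2. With the library number as a block it was 12, in a fit whose share of all genes called is not given here. Gut epithelial markers summed to 258 to 1225 CPM in PP HEL pos libraries and at most 71.9 CPM in those of spleen, with 11 of 14 higher. B cell markers had 6 of 8 lower, at 25422 to 31536 CPM in PP, granulocyte markers 4 of 4 lower, and the plasma cell list 4 of 11 higher and 3 lower. The part of these lists in the differences was not tested. Without the PP libraries 399 and Pool, which leaves 1 PP library that is assumed to vary like the other groups, 1 member was called.

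Among the other members followed library by library, some PP values cleared the spleen range without a call. These are descriptions, and the share of all genes whose ranges separate in this way is not given here. Hspa5 was at 989, 917 and 823 CPM in the PP pool, 392 and 399, above all 3 spleen libraries, and was not called. Hsp90b1 was at 814, 620 and 736 CPM and Manf at 107, 117 and 154 CPM, both overlapping spleen. Calr, at 567, 530 and 617 CPM, and Sdf2l1, at 98.5, 81.5 and 123 CPM, lay above all spleen values, and Pdia6, at 433, 355 and 375 CPM, did so without a call. Herpud1 was at 202, 223 and 297 CPM and Ssr4 at 134, 192 and 227 CPM, within or across the spleen range. Ern1 was at 2.65, 2.09 and 0.519 CPM, the last of these resting on 3 counts.

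Between PP and mLN, 10 members were lower in PP and 1, Ero1lb, was higher, where 8.86% of all genes tested were called, 5.34% higher and 3.52% lower. Creld2 had the smallest p, with 95.6, 89.6 and 89.6 CPM in PP against 140, 148 and 168 CPM in mLN, a log2 difference of -0.74 ± 0.17 (adjusted p = 0.0114). Sdf2l1 fell by 0.78 and Pdia6 by 0.72, and Pdia3, Ssr3, Dnajb11, P4hb, Calr, Ssr1 and Spcs2 were lower by smaller amounts. Ssr3, a TRAP subunit that was not called between mLN and spleen, was at 120, 143 and 124 CPM in PP and 186, 175 and 192 CPM in mLN. Gut epithelial markers had 12 of 14 higher in PP, and their part was not tested. Leaving out a single library lowered the count of calls. Such fits have fewer data for every gene, and their share of all genes called is not given here. The count was 1 without the mLN library 399, 2 without mLN 392, 4 without either mLN Pool or PP 399, and 6 without either PP Pool or PP 392. The 3 comparisons between tissues share libraries, so their counts are not independent.

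In cells labelled BCL2 HEL pos, the mLN libraries against those of spleen had 11 members higher and 1 lower, where 10.0% of all genes tested were called, 5.77% higher and 4.23% lower. The member median was 0.38, against -0.02 over all genes. All 12 calls were also calls in the same direction in HEL pos cells, which is 100% of the BCL2 list and 60.0% of the HEL pos list. The largest was again Sdf2l1, at 30.2, 34.5 and 45.5 CPM in the spleen libraries 922, 926 and 950 and 63.5, 106 and 96.3 CPM in mLN, a log2 difference of 1.27 ± 0.23 (adjusted p = 0.00124). Ero1lb again had the smallest p, falling from 197, 192 and 218 CPM to 115, 130 and 133 CPM (-0.69 ± 0.11, adjusted p = 0.000334). Pdia6 rose from 156, 193 and 196 CPM to 267, 378 and 334 CPM, a difference of 0.85 ± 0.19.

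Hspa5 in BCL2 HEL pos cells was at 448, 527 and 603 CPM in spleen and 646, 932 and 852 CPM in mLN, with no overlap and a log2 difference of 0.62 ± 0.20 (adjusted p = 0.0485). Calr (302, 331 and 378 CPM against 432, 573 and 528 CPM) and Ssr4 (160, 152 and 130 CPM against 229, 246 and 202 CPM) were called as well, at 0.60 and 0.61. Hsp90b1 (252, 401 and 380 CPM against 376, 573 and 574 CPM), Creld2 and Manf were not called, at 0.56, 0.53 and 0.48. The degradation genes were again not called, 0 of 7, with Herpud1 at 232, 247 and 316 CPM in spleen and 196, 251 and 259 CPM in mLN.

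The calls on Ero1lb, Pdia6 and Sdf2l1 in this comparison held under every alternative. Fits without a library have fewer data for every gene, and their share of all genes called is not given here. The count of calls was 3 without spleen 922, 5 without spleen 926, 7 without spleen 950, 4 without mLN 926 and 6 without mLN 950. With the library number as a block it was 20, in a fit whose share of all genes called is not given here. The plasma cell list had 4 of 11 members higher and 2 lower, with summed levels of 1029 to 1351 CPM in spleen and 1177 to 1361 CPM in mLN, and 3 of 8 B cell markers were lower. Their part in the differences was not tested.

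In PP against spleen 8 members were higher in BCL2 HEL pos cells and none lower, where 7.34% of all genes tested were called, 4.81% higher and 2.53% lower. Sdf2l1 had the smallest p and the largest difference, 1.09 ± 0.23 (adjusted p = 0.00538), with 56.3, 73.6 and 104 CPM in PP, all above the spleen values. Hspa5 was higher by 0.85 ± 0.20, at 640, 972 and 1240 CPM in PP, and Pdia6 by 0.76, at 208, 309 and 407 CPM. Pdia3, Spcs3, Canx, Calr and Dnajb11 were the others. Sdf2l1 and Calr were the 2 genes called in the same direction in PP of both cell kinds, out of 6 and 8 called. Ero1lb was not called here (-0.29 ± 0.11). The count fell to 1 without spleen 922 or PP 950, and to 4 without spleen 926 or PP 926. Gut epithelial markers summed to 42.2 to 187 CPM in these PP libraries and 24.3 to 32.1 CPM in spleen, and their part was not tested. Between PP and mLN of BCL2 HEL pos cells no member was called (edgeR), where 1.16% of all genes tested were called, 0.806% higher and 0.350% lower. At an unadjusted p under 0.05 there were 3 members, and 1368 of the 11419 genes tested. DESeq2 called 1 member. Ero1lb was the nearest to a call, at 180, 159 and 161 CPM in PP against 115, 130 and 133 CPM in mLN (0.40 ± 0.11, adjusted p = 0.0915).

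The other members followed across the BCL2 HEL pos libraries 922, 926 and 950 show where 922 was low. Hsp90b1 was at 372, 657 and 630 CPM in PP and Calr at 430, 553 and 480 CPM, with 922 lowest in both. Creld2 was at 56.5, 56.3 and 65.0 CPM in spleen, 75.2, 80.0 and 102 CPM in mLN and 56.1, 69.4 and 87.0 CPM in PP. Manf was at 97.5, 107 and 100 CPM in spleen, 113, 172 and 139 CPM in mLN and 116, 160 and 164 CPM in PP. Library 922 was the lowest of the 3 in mLN and PP for both genes. Sec61b did not follow this order, at 117, 134 and 100 CPM in spleen, 157, 179 and 141 CPM in mLN and 131, 116 and 96.5 CPM in PP. In PP, Herpud1 was at 206, 253 and 299 CPM and Ssr4 at 190, 196 and 141 CPM. Ern1 stayed between 1.20 and 2.66 CPM in all 9 libraries.

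Whether the tissue difference itself differed between BCL2 HEL pos and HEL pos cells was tested as an interaction. No member was called by edgeR in any of the 3 interactions, where 0.385% of all genes were called for mLN against spleen (0.219% higher and 0.166% lower) and 0.00876% for each of the others. DESeq2 called none of the 37 either. At an unadjusted p under 0.05 there were 2 members for mLN against spleen, 3 for PP against spleen and 9 for PP against mLN. For all 9 the PP against mLN difference was more positive in BCL2 HEL pos cells. Of the 11419 genes tested, 1066, 1083 and 1132 were under 0.05 in the same order. The smallest interaction p for mLN against spleen was that of Ero1lb (0.39 ± 0.15, adjusted p = 0.395). For PP against mLN it was that of Dnajb11 (0.54 ± 0.19, adjusted p = 0.377), followed by Hspa5 (0.70 ± 0.28). Tissue differences called in one cell kind and not in the other were therefore not shown to differ between the kinds.

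**Figure D3:**
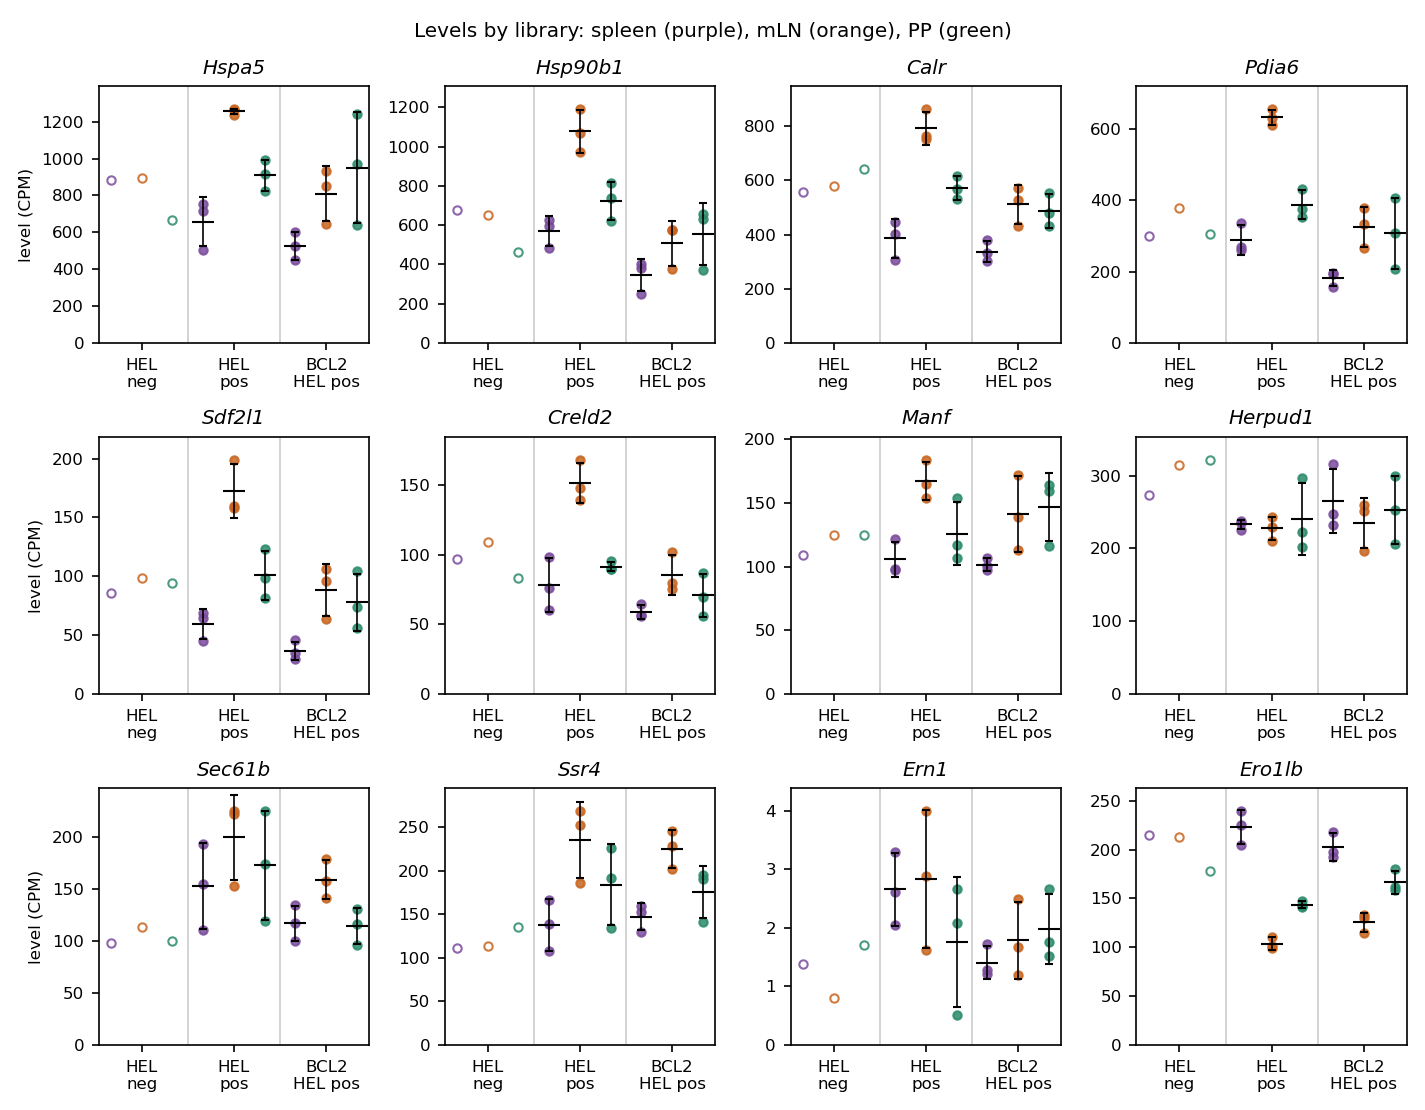
Each point is the CPM of 1 library for 12 genes. Within each cell kind the order is spleen, mLN, PP, open circles are the single HEL neg pools, and black bars give the mean ± SD of 3 libraries. In HEL pos cells the mLN points of Hspa5, Hsp90b1, Calr, Pdia6, Sdf2l1, Creld2 and Manf lie above all spleen points, those of Ero1lb lie below, and those of Herpud1 and Ern1 overlap.

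BCL2 HEL pos cells were next compared with HEL pos cells of the same tissue, to ask what goes with the BCL2 label. In mLN 12 members were lower in BCL2 HEL pos cells and none higher, where 11.7% of all genes tested were called, 5.78% higher and 5.90% lower. The member median was -0.29. Hsp90b1 had the largest difference, -1.08 ± 0.21 (adjusted p = 0.00185), from 1067, 975 and 1189 CPM to 376, 573 and 574 CPM. Pdia6 had the smallest p, -0.96 ± 0.19 (adjusted p = 0.00184), and like Hsp90b1 its ranges did not overlap (655, 613 and 632 CPM against 267, 378 and 334 CPM). Sdf2l1 fell by 0.96, Creld2 by 0.82, Pdia3 by 0.73 and Spcs3 by 0.66 on the log2 scale, and Hspa5, Calr, Ssr2, P4hb, Canx and Dnajb11 were lower by smaller amounts. None of the 7 degradation genes was called. The count was 4 without the HEL pos library 399 or the BCL2 library 922, and 7 without the HEL pos library 392. Without both HEL pos libraries that lack Y-linked transcripts (392 and 399), which leaves 1 HEL pos library and was added after the data were seen, it was 0. The differences of the 12 genes kept their direction there. Hsp90b1 was at -1.06 (adjusted p = 0.0696), Pdia6 at -0.995 (adjusted p = 0.0607) and Creld2 at -0.69 (adjusted p = 0.115), while Canx moved from -0.49 to -0.27. T and NK cell markers had 6 of 10 lower, with summed levels of 66.8, 58.3 and 14.7 CPM in the HEL pos pool, 392 and 399 and 10.3 to 11.7 CPM in BCL2 HEL pos cells. B cell markers had 3 of 8 higher and the plasma cell list 3 of 11 higher and 2 lower. The part of these lists was not tested.

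In spleen 4 members were lower in BCL2 HEL pos cells, where 9.37% of all genes tested were called, 4.55% higher and 4.82% lower. Of the called members Pdia4 was lower by the most, at 765, 481 and 787 CPM in HEL pos cells and 292, 341 and 472 CPM in BCL2 HEL pos cells (-0.86 ± 0.21, adjusted p = 0.0136). Hsp90b1 fell by 0.70, Pdia6 by 0.64 and Ssr2 by 0.45. The count was 0 without HEL pos 399, BCL2 922 or BCL2 926, 1 without BCL2 950, and 2 without the HEL pos pool. Without HEL pos 392 and 399 together, which leaves 1 HEL pos library, the 4 genes kept their direction and lost their calls. Pdia4 was at -1.03, Pdia6 at -0.85, Hsp90b1 at -0.77 and Ssr2 at -0.38 there. Granulocyte markers were lower in the BCL2 HEL pos libraries (0 to 0.463 CPM), with 4 of 4 tested members called, and their part was not tested. In PP no member was called by edgeR, where 10.1% of all genes tested were called, 5.33% higher and 4.74% lower. At an unadjusted p under 0.05 there were 4 members, and 3027 of the 11419 genes tested. DESeq2 called 1 member. Leaving out the HEL pos pool gave 2 calls, and leaving out HEL pos 392 gave 1. The smallest p in PP was that of Ssr3, higher by 0.38 ± 0.13 in BCL2 HEL pos cells (adjusted p = 0.066), at 162, 191 and 151 CPM against 120, 143 and 124 CPM. The interval of the Hspa5 difference in PP ran from -0.36 to 0.50, and that of Sdf2l1 from -0.86 to 0.13. Gut epithelial markers had 7 of 14 lower in BCL2 HEL pos cells of PP, and their part was not tested.

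HEL neg cells, with 1 pool a tissue, give a reference for the tissue differences but no replicate. Between the HEL neg pools of mLN and spleen the 37 genes had a median difference of -0.002 on the log2(CPM + 1) scale, with 0 over 0.5 and 2 under -0.5, where 8.79% and 12.7% of all genes tested were. Between the HEL pos pools of the same tissues the median was 0.42 and 16 members were over 0.5 and 1 under -0.5, against 15.6% and 18.2% of all genes. Hspa5 was at 883 CPM in the spleen HEL neg pool and 896 in that of mLN, Calr at 558 and 577, Sdf2l1 at 86.2 and 98.6, and Hsp90b1 at 679 and 653. Ero1lb was at 215 and 213 CPM in the HEL neg pools, where the HEL pos pools had 205 and 98.8 CPM. Pdia4 was 1 of the 2 genes under -0.5 (the other was Atf6), at 727 CPM in the spleen HEL neg pool and 415 in mLN, a difference of -0.81 that is larger than that of the HEL pos pools (-0.40). Of the summed level of the 37 genes, the HEL neg pools held 8786 CPM in spleen, 8591 in mLN and 7649 in PP.

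**Figure D4:**
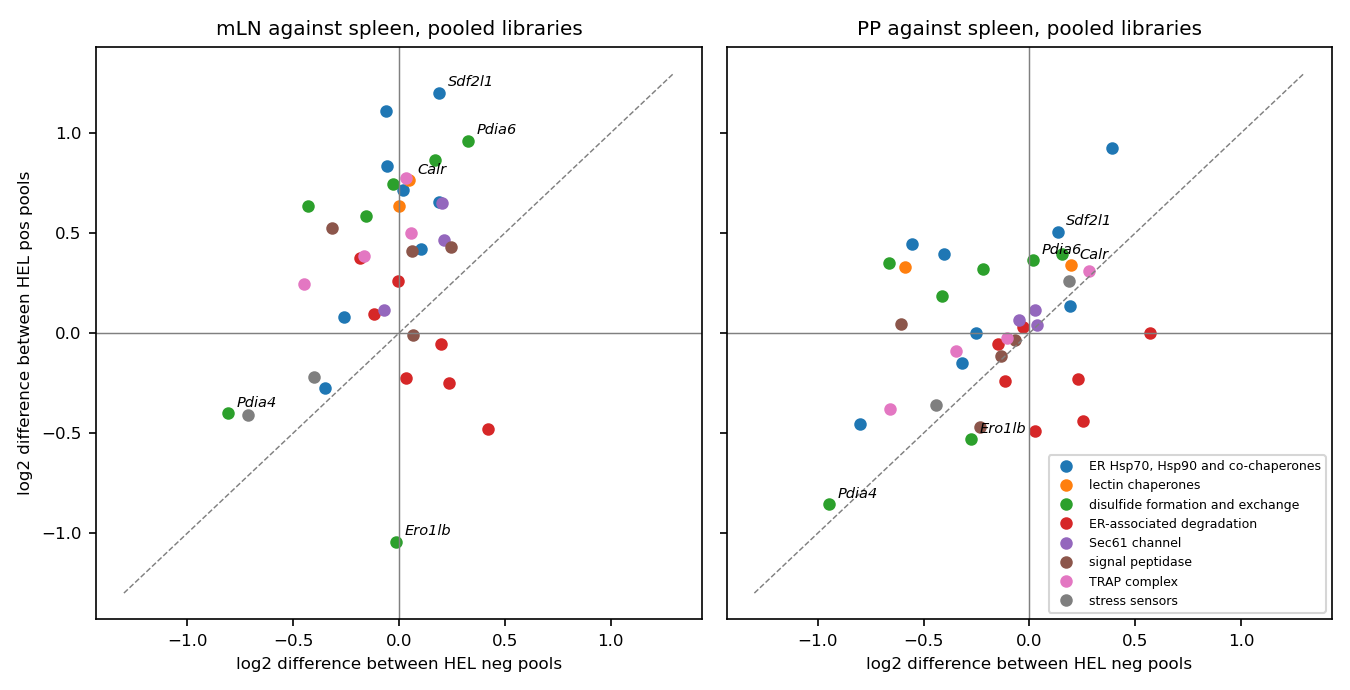
Points are the 37 genes, coloured by role, with the log2(CPM + 1) difference of mLN (left) or PP (right) against spleen between HEL neg pools (x axis) and HEL pos pools (y axis), 1 library each. The dashed line marks equal differences. In mLN most members lie above it, with Sdf2l1 at 0.19 on the x axis and 1.20 on the y axis, while Ero1lb lies at -0.01 and -1.04.

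A test of whether the HEL pos tissue difference departs from that between HEL neg pools was added after the data were seen, in a fit of all 21 libraries where the single pools borrow the spread of the replicated groups. For mLN against spleen 1 member was called, Ero1lb, with an interaction of -1.09 ± 0.22 (edgeR, adjusted p = 0.00939), where 3.55% of all genes tested were called, 1.70% higher and 1.85% lower. The member median was 0.56, against -0.01 over all genes, and 31 of 37 genes were above 0. Of the members 15 had an unadjusted p under 0.05, as had 1783 of the 11750 genes tested. Without the spleen HEL pos pool 2 members were called, DESeq2 called 3, the fit with no filter on low counts 6, and a block on the library number, likewise a later addition, 12 (11 higher and 1 lower). The 3.55% belongs to the main fit, and the share of all genes called in these alternative fits is not given here. For PP against spleen and PP against mLN no member was called, where 0.272% (0.221% higher and 0.0511% lower) and 0.162% (0.0936% higher and 0.0681% lower) of all genes were. At an unadjusted p under 0.05 there were 6 and 2 members, and 1311 and 1216 of the 11750 genes tested. DESeq2 called 1 member in each, and the block gave 3 and 0. The smallest p for PP against spleen was that of Canx (0.98 ± 0.29, adjusted p = 0.162), at 485 CPM in the spleen HEL neg pool and 322 CPM in PP.

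HEL pos cells were also compared with HEL neg cells over the 3 tissues together. Sec61b (0.76 ± 0.20, adjusted p = 0.0308) and Ssr1 (0.47 ± 0.13, adjusted p = 0.0423) were higher in HEL pos cells and none was lower, while 8.68% of all genes tested were called, 3.46% higher and 5.22% lower. Sec61b was at 98.1, 114 and 99.9 CPM in the spleen, mLN and PP HEL neg pools and at 110, 153 and 120 CPM in the HEL pos pools. It was at 155 to 224 CPM in the HEL pos libraries 392 and 399, which lack Y-linked transcripts. On the pooled libraries alone neither gene was called, with Sec61b at 0.30 (edgeR, adjusted p = 0.423) and Ssr1 at 0.32 (adjusted p = 0.444), and with the library number as a block, which compares the pools, they were at 0.29 and 0.31 and not called. This fit takes tissue as a covariate, which assumes the same difference in every tissue, and rests on 3 HEL neg libraries. Differences that run opposite ways between tissues offset each other in it. Hspa5 averaged 657 CPM in spleen HEL pos libraries against 883 CPM in the HEL neg pool. In mLN it averaged 1255 CPM against 896 CPM. A low count of calls is therefore not evidence that these cell kinds are alike within a tissue. The count was 0 without the mLN or PP HEL neg pool, spleen 392, mLN 392 or mLN 399, 1 without the mLN HEL pos pool, PP 392 or spleen 399, 4 without the spleen HEL pos pool, 5 without the PP HEL pos pool and 10 without the spleen HEL neg pool.

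Against HEL neg cells, BCL2 HEL pos cells had 4 members higher (Ssr4, Atf6, Sec61g and Ssr1) and 4 lower (Edem1, Calr, Creld2 and Syvn1), where 14.7% of all genes tested were called, 6.56% higher and 8.10% lower. Ssr4 had the smallest p, at 111, 114 and 135 CPM in the HEL neg pools and 130 to 246 CPM in the 9 BCL2 HEL pos libraries (0.59 ± 0.14, adjusted p = 0.00977). Atf6, the sensor that is cut to a transcription factor in the Golgi, was higher by 0.50 ± 0.14, at 74.1, 44.8 and 54.2 CPM in the HEL neg pools and 64.3 to 91.6 CPM in the BCL2 HEL pos libraries. Calr fell by 0.43 and Edem1 by 0.69. All HEL neg libraries are pools and all 9 BCL2 HEL pos libraries are numbered, so cell kind and pooling cannot be told apart here. Among HEL pos libraries, Ssr4 was at 108, 186 and 134 CPM in the spleen, mLN and PP pools. In the HEL pos libraries 392 and 399 Ssr4 was at 139 to 268 CPM. Atf6 was at 85.1, 63.8 and 66.1 CPM in those pools and at 60.3 to 76.3 CPM in 392 and 399. The count was 1 without the mLN or PP HEL neg pool, 3 without spleen 926, 4 without PP 922, and 5 without spleen 922, mLN 922, mLN 926 or PP 926. Gut epithelial markers were lower in BCL2 HEL pos cells, with 8 of 10 tested members called and 1307 CPM in the PP HEL neg pool. T and NK cell markers had 6 of 9 lower, dendritic cell markers 2 of 4 and macrophage and monocyte markers 2 of 8. The part of these lists was not tested. On spleen and mLN libraries alone, an alternative added after the data were seen, the count was 4.

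Other genes of the same pathway were counted from 92 companions in 6 lists, of which 87 were tested. In HEL pos cells of mLN against spleen 18 were higher and 3 lower. Of all genes tested 24.5% were called in either direction, 12.9% higher and 11.5% lower. Taken in either direction, the companions were called about as often as all genes. The oligosaccharyltransferase, which attaches N-glycans beside the Sec61 channel, had 4 of 11 members higher, led by Rpn1 (0.76) and Ddost (0.73). Of the other folding and retrieval genes 6 of 19 were higher and 2 lower, with the glucosidase Mogs at 0.94, Fkbp2 at 0.86 and Fkbp11 at -2.47. The degradation companions had 2 of 15 higher, and these were Derl3 (2.22 ± 0.27, adjusted p = 3.29e-06), a relative of Derl1 and Derl2, and Vcp (0.61), the ATPase that extracts clients. Among vesicle transport genes 3 of 18 were higher and the COPII coat gene Sec24d was lower (-1.69). Of the stress response regulators 2 of 10 were higher, Ddit3 (1.09) and Xbp1 (0.53), the transcription factors CHOP and the target of Ire1. Of the other translocation and targeting genes 1 of 14 was higher, Sec61a2 (1.14).

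Derl3 and Ddit3 were higher in mLN and in PP than in spleen in both cell kinds. Derl3 differed by 2.72 in mLN and 1.98 in PP of BCL2 HEL pos cells and by 1.34 in PP of HEL pos cells, and Ddit3 by 0.76, 0.82 and 0.84. In BCL2 HEL pos cells 5 of 87 companions were higher and 1 lower in mLN against spleen, where 10.0% of all genes were called, and 3 and 1 in PP against spleen, where 7.34% were. Against HEL pos cells, BCL2 HEL pos cells had higher Ppp1r15a, the phosphatase subunit that ends the stress block on translation, by 1.13 in spleen, 0.80 in mLN and 1.38 in PP. In the same comparison in mLN, 1 companion was higher and 9 of 87 were lower, where 5.90% of all genes were lower. Of the 9, 5 were among the 11 oligosaccharyltransferase genes, with Rpn1 at -0.76. Companion genes were not recomputed under the alternative fits, those that leave out libraries included.

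The genes with the exact long element were set beside the others as a description. In HEL pos cells of mLN against spleen, 6 of the 9 genes with it were higher and 1, Ero1lb, was lower, with a median log2 difference of 0.94. Of the 20 genes in the promoter table without it, 8 were higher and none lower, with a median of 0.42, and of all genes tested 12.9% were higher and 11.5% lower. In the same comparison of BCL2 HEL pos cells the medians were 0.56 and 0.36, and for BCL2 HEL pos against HEL pos cells in mLN they were -0.63 and -0.24. Sdf2l1, which has the largest tissue difference, was among the genes searched and holds no exact long or short element in its window. With 1 mismatch allowed it holds the short one, as do 9 of the 29 members searched and 1.31% of all symbols. Syvn1, whose window is printed above, was not called in any tissue comparison.

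Some members share bases with a neighbour. Spcs1 shares 16.3% of its exon bases with a gene on the opposite strand and Hsp90b1 shares 10.3%, and since the strand setting of the counting is not given, reads there could belong to either gene. The other members shared under 3%.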

How the data were processed

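The authors deposited whole-number counts per gene for 21 libraries. Per the submitters' processing notes STAR, HTSeq and DESeq2 were used with build mm10; their roles, versions, settings and the strand setting were not stated in the sources used here. Per the labels' protocols, cells were sorted into Trizol and sequenced as single-end reads, and both TruSeq and Nextera XT kits are named, so the kit is uncertain.

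Genes were filtered with filterByExpr, libraries scaled with the trimmed mean of M values (TMM), and groups compared two-sided in edgeR 4.0.16 (R 4.3.3), with its quasi-likelihood test over all genes, with Benjamini-Hochberg adjustment. An adjusted p under 0.05 is a call. HEL pos and BCL2 HEL pos cells came from 1 fit of 18 libraries (11419 genes, 12 residual degrees of freedom). For comparison with HEL neg cells each was fitted with the 3 pools, tissue being a covariate (11406 and 10987 genes). Such a fit assumes the same difference in every tissue. The SE is the absolute log2 fold change over the square root of F. The script was tested on simulated data. Alternatives were DESeq2 1.42.0, its size factors, no filter, the compared libraries alone, the library number as a block and leaving out libraries. Same-numbered libraries deviated together with r over 0.1 in every pair for PP against spleen in HEL pos cells and mLN against spleen in BCL2 HEL pos cells, so those blocked counts stand beside their results.

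Members were named by role; values for every library were given for 12 representative members and for the smallest p in each comparison, and up to 8 called members with the largest differences and 3 called companions a list were named. The members, lists and tests were chosen with earlier results of these data known. Promoters came from RefSeq, gene models from GENCODE M21. Depth sets the precision: 3 counts correspond to 0.257 to 0.519 CPM, which covers counting error only. Protein sequences were not analysed here.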

Additional observations from a re-analysis of the deposited data

Results flagged for a closer look

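Ero1lb, the second ER oxidase, differed between mLN and spleen in HEL pos cells and not between the HEL neg pools, and the difference between these differences was -1.09 ± 0.22 on the log2 scale (edgeR quasi-likelihood interaction over 11750 genes, adjusted p = 0.00939). All 3 mLN HEL pos libraries were below all 3 of spleen, and the HEL neg value of each tissue is 1 pool. The interaction was chosen after the data were seen. No explanation was tested.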

How the results depend on the processing

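The counts of called members below are for each comparison, against the value in the report. The share of all genes called under each alternative is not given here. Of 1051 recomputed values of single called members, 748 stayed calls in the same direction, 303 kept the direction and lost the call, and 0 reversed. Leaving out each library in turn gave 18 to 21 calls for mLN against spleen in HEL pos cells, 2 to 8 for PP against spleen and 1 to 6 for PP against mLN. In BCL2 HEL pos cells the ranges were 3 to 13, 1 to 10 and 0 to 0. For BCL2 HEL pos against HEL pos cells they were 0 to 4 in spleen, 4 to 10 in mLN and 0 to 2 in PP, and 0 to 0 in each interaction. HEL pos against HEL neg cells gave 0 to 10, BCL2 HEL pos against HEL neg cells 1 to 8, and the added interactions 1 to 2, 0 to 0 and 0 to 0.

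With the library number as replicate block the counts were 24, 12 and 18 in HEL pos cells, 20, 13 and 3 in BCL2 HEL pos cells (mLN against spleen, PP against spleen, PP against mLN), and 1 for the PP against mLN interaction. Same-numbered libraries correlated in their deviations from the group means at 0.0204 to 0.307, over 0.1 in 13 of 18 pairs, and 16 of 18 were highest with their own number, a hint from the data and not the design. HEL pos and HEL neg libraries share only the number Pool. The replicate block, added there after seeing the data, gave 0 for HEL pos against HEL neg, and 12, 3 and 0 for the added interactions. No paired analysis was possible because no number is shared where BCL2 HEL pos cells are compared with HEL pos or HEL neg cells.

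Fitting the compared libraries alone gave 3 for PP against spleen and 5 for PP against mLN in HEL pos cells, 20 for mLN against spleen in BCL2 HEL pos cells and 8 for BCL2 HEL pos against HEL pos cells in spleen. DESeq2 gave 1 for PP against mLN in BCL2 HEL pos cells, 1 for BCL2 HEL pos against HEL pos in PP, 6 for HEL pos against HEL neg, and 3, 1 and 1 for the added interactions. With no filter on low counts they were 7 (spleen) and 1 (PP) for BCL2 HEL pos against HEL pos, 4 and 13 for HEL pos and BCL2 HEL pos against HEL neg, and 6 for the added mLN against spleen interaction. Without the pooled HEL pos libraries they were 2 for PP against mLN, 2 for BCL2 HEL pos against HEL pos in PP and 5 for HEL pos against HEL neg, and on pooled libraries alone 0. Leaving out PP HEL pos 399 and Pool gave 1 against spleen and 0 against mLN. Without HEL pos 392 and 399, added after seeing the data, BCL2 HEL pos against HEL pos gave 1 in spleen and 0 in mLN. The spleen genes called in the main fit lost their calls there. On spleen and mLN libraries, also added, the HEL neg comparisons gave 0 and 4. Size factors of DESeq2 within edgeR moved no count by over 1.5 times. The cause of these changes was not tested. Low counts limit Ern1, at 3 to 31 counts a library.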
